A study of Homo sapiens with 12 samples.

Results

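The metallothionein and zinc transporter genes of HMEC-1 endothelial cells were examined across all 4 culture conditions of the study. Members were taken by gene symbol: the metallothioneins MT2A and MT1A, B, E, F, G, H, M and X, the numbered SLC30A and SLC39A transporters, and MTF1. The rule found 34 of the 60623 genes in the deposited table, namely 9 metallothioneins, 10 SLC30A genes, 14 SLC39A genes and MTF1. The family was selected on measured values: it was proposed with the levels of all 12 libraries known, and MT2A, MT1X, MT1E and SLC30A1 were singled out by those levels. For these 4 genes values and differences are therefore given as a description with no test.

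Metallothioneins are short, cysteine-rich proteins that bind zinc and copper and release zinc again when thiols are oxidised. MTF1 is a zinc-finger transcription factor that senses free zinc and binds metal response elements, short motifs that occur in several copies in front of metallothionein genes and in front of SLC30A1. SLC30A proteins (ZnT) lower cytosolic zinc by moving it out of the cell or into organelles, whereas SLC39A proteins (ZIP) raise cytosolic zinc by letting it in from outside or from stores. Human metallothionein genes are also known to respond to glucocorticoids and, in liver, to cytokines of the interleukin-6 family, to which oncostatin M belongs.

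HMEC-1 is an immortalised human dermal microvascular endothelial line. Every group was grown in medium with EGF, hydrocortisone and heat-inactivated serum, and each of the 4 groups had 3 libraries. In the PF9363 group cells received oncostatin M (OSM) together with 30 µg/mL PF9363, given in the labels as a KAT6A/B inhibitor. In the CBP300 group they received OSM with 10 µg/mL CBP300, given as an EP300 inhibitor; KAT6A, KAT6B and EP300 are histone acetyltransferases. The OSM group received the recombinant cytokine alone and the CT group is the labelled control, all at 48 h. The OSM dose is 10 ng/mL in the treatment protocol and 10 µg/mL in the sample labels, and these disagree. No vehicle is named and there is no group with an inhibitor and no OSM, so PF9363 and CBP300 could be compared only on top of OSM, and their doses differ. The labels do not say whether replicates came from separate cultures, so p-values measure the spread between these libraries, which may be technical.

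Levels are the deposited TPM, transcript abundances scaled to transcript length and to the library total. The lengths behind them are not given in the sources used here, so comparisons of level between genes are approximate. Recovered reads per library were 13418045 to 73297452, with the highest in CBP300 replicate 2. All 12 listed endothelial markers averaged at least 1 TPM, with summed levels of 1176 to 1238 TPM in PF9363 libraries, 685 to 732 TPM in CBP300 libraries, 1308 to 1369 TPM in OSM libraries and 1452 to 1559 TPM in CT libraries. Of 5 epithelial markers EPCAM and CDH1 averaged below 1 TPM over all libraries, while the sum, carried by keratins, was 2687 to 3871 TPM with PF9363, 527 to 536 TPM with CBP300, 769 to 837 TPM with OSM and 795 to 1082 TPM in CT. Of 5 leukocyte markers all but CD14 averaged below 1 TPM over all libraries, and the sum of the 5 was 44.9 to 60.2 TPM with PF9363, 15.9 to 17.8 TPM with CBP300, 13.7 to 17.5 TPM with OSM and 4.48 to 6.69 TPM in CT. Of the fibroblast or mural markers DCN, LUM and PDGFRA averaged below 1 TPM over all libraries. The sum of that list was 11.6 to 14.8 TPM with PF9363 and 6.21 to 7.43 TPM with CBP300. It was 12.5 to 14.5 TPM with OSM and 15.8 to 17.7 TPM in CT. The part of all these markers in the results was not tested. CT replicate 1 stood apart, with the steepest dependence of log2 TPM on GC content (0.60 per 10 percentage points, against 0.22 and 0.29 in the other CT libraries) and the smallest mitochondrial share (12.5% of TPM). The slope was -0.16 to 0.11 in PF9363 libraries, -0.35 to -0.29 in CBP300 libraries and -0.11 to 0.01 in OSM libraries, so it differed between groups. Per doubling of transcript length, log2 TPM changed by -0.24 to -0.11 in CT libraries and 0.04 to 0.06 in OSM libraries. It changed by -0.12 to 0.04 in PF9363 libraries and 0.13 to 0.15 in CBP300 libraries. Differences below are therefore also given with a trend on GC content and transcript length removed, called the corrected value, where it changes a call or a sign and for most others. The part of GC content and length in the results was not otherwise tested.

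The promoters shown are those of MT2A, the most abundant member, MT1X, which differed most between CBP300 and OSM, MT1H, which holds more metal response elements than MT2A but was almost silent, and SLC30A1, a transporter known as a target of MTF1. Each is the 250 bases before the RefSeq start on GRCh38.p14, and capitals mark the metal response element core, searched as TGCACNC or TGCGCNC on both strands.
MT2A, chr16:56608334-56608583, plus strand: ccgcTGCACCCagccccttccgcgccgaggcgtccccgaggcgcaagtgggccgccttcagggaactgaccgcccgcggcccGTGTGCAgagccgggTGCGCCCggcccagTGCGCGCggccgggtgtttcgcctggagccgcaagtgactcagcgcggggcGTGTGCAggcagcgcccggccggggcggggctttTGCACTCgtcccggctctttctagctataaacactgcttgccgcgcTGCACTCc
MT1X, chr16:56682220-56682469, plus strand: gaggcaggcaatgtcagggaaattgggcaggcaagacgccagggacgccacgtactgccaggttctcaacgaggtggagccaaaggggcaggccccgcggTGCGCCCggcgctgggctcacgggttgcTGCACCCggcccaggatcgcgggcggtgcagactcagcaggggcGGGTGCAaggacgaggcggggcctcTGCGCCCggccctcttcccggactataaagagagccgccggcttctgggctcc
MT1H, chr16:56669564-56669813, plus strand: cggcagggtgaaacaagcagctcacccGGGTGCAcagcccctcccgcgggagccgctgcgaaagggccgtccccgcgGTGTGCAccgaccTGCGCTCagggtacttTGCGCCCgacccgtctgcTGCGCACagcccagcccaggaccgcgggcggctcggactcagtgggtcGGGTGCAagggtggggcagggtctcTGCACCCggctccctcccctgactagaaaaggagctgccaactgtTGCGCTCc
SLC30A1, chr1:211579162-211579411, minus strand: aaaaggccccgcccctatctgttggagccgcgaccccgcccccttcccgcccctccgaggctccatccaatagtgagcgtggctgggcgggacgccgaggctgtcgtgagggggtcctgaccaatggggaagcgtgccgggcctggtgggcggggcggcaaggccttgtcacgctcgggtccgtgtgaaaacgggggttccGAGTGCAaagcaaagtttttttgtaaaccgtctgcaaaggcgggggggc
MT2A had 7 matches, MT1X 4, MT1H 8 and SLC30A1 1. Over the 35116 promoters of the RefSeq table, 24.8% held at least 1 match, 0.37% at least 4, 0.0313% at least 7 and 0.0171% at least 8. A STAT motif, TTCNNNGAA, occurred once before MT2A, 194 to 186 bases from the start and outside every metal response element; 6.57% of all promoters held at least 1. MT1B, which was at 0 TPM in every library, held 3 metal response element matches, and the MTF1 promoter held none. RefSeq promoters were matched for 26 of the 34 genes by symbol; MT1A, MT1E, MT1F, MT1G and MT1M are named only. GENCODE release 29 annotates the MT2A locus from an earlier start (chr16:56608199-56609497), so the window shown is upstream of the RefSeq start only. The GENCODE locus of MT1X (chr16:56682424-56684196) likewise starts inside the window shown. That of SLC30A1 (chr1:211571568-211578742, minus strand) starts short of the window, which begins at chr1:211579162. The matches counted for SLC30A1 therefore hold for the RefSeq start only.

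**Figure D1:**
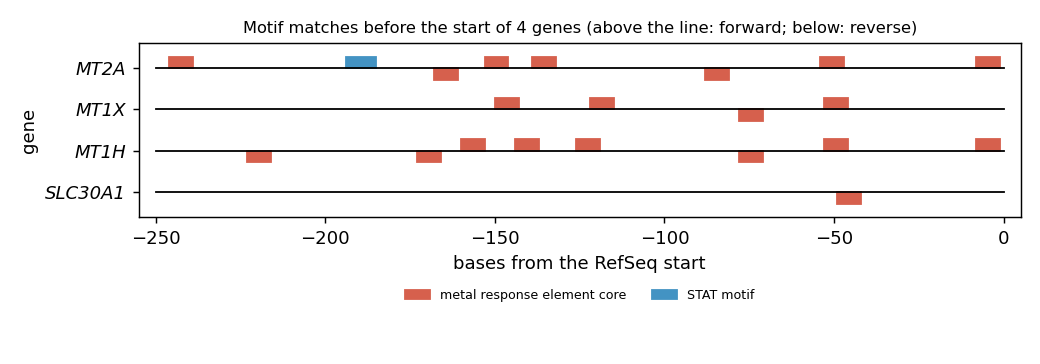
Positions of motif matches in the 250 bases before the RefSeq start of MT2A, MT1X, MT1H and SLC30A1; the x axis gives bases from the start, boxes above a line are forward matches and boxes below are reverse matches, and the STAT motif, which reads the same both ways, is drawn above. The 4 genes held 7, 4, 8 and 1 metal response element cores, and the single STAT motif lay before MT2A.

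All 9 metallothionein genes lie in a cluster on chromosome 16, from MT2A (chr16:56608199-56609497, GRCh38, plus strand) to MT1X (chr16:56682424-56684196, plus strand), and only MT1G (chr16:56666731-56668065) is on the minus strand. Their coding sequences are near-identical in places. The TPM values were whole multiples of a step found for each gene, taken as the value of a single read. Equal shares of a read between copies would also give whole multiples, so this cannot tell whether reads were split. How reads matching several copies were handled is not given in the sources used here. Values of single MT1 genes are uncertain to that extent. MT1B was at 0 TPM throughout and MT1H stayed at or below 0.286 TPM, and neither was tested.

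MT2A, the major human metallothionein, had 693, 849.6 and 1203 TPM in the PF9363 libraries and 5167, 5127 and 5286 TPM in the CBP300 libraries. With OSM alone it had 1796, 2156 and 2176 TPM, and in CT 6794, 3453 and 3694 TPM. The PF9363 libraries were thus below all OSM libraries, which in turn were below all CT libraries, while the CBP300 libraries overlapped the CT range only through CT replicate 1 and lay above the other CT libraries. CBP300 against CT differed by 0.23 as deposited and by 1.31 in corrected values. On the log2(TPM + 1) scale MT2A differed by -1.12 ± 0.25 (standard error, n = 3 each) between OSM and CT, and by -0.54 in corrected values. Between PF9363 and OSM the difference was -1.19 ± 0.25 (corrected -0.99), and between CBP300 and OSM it was 1.35 ± 0.25 (corrected 1.84). With CT replicate 1 left out, the difference between OSM and CT was -0.81. MT2A made up 83.7% to 91.4% of the summed metallothionein TPM in every library, so the sum followed it: 1006 ± 283 TPM with PF9363, 5973 ± 169 TPM with CBP300, 2366 ± 223 TPM with OSM and 5461 ± 2120 TPM in CT (SD, n = 3 each).

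MT1E was arranged much like MT2A. It had 50.3, 60.7 and 77.97 TPM in PF9363 libraries, 713, 539.9 and 699.6 TPM in CBP300 libraries, 285, 255 and 316 TPM in OSM libraries and 1052, 645 and 617 TPM in CT libraries. PF9363 and OSM libraries each stood clear of every other group, while the CBP300 and CT ranges overlapped (-0.21 for CBP300 against CT and 0.44 corrected). The log2 difference was -1.39 ± 0.22 for OSM against CT, -2.18 ± 0.22 for PF9363 against OSM, 1.18 ± 0.22 for CBP300 against OSM and -3.36 ± 0.22 for PF9363 against CBP300. Corrected values were -1.04, -1.95, 1.48 and -3.43 in the same order of comparisons. Without CT replicate 1 the OSM against CT difference was -1.15. The difference between PF9363 and CBP300, the groups with the lowest and a high level, was the widest of any tested member in any of these 4 comparisons.

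MT1X behaved differently. Its TPM values were 10.3, 10.98 and 15.8 with PF9363, 105, 90.05 and 93.7 with CBP300, 13.1, 18.3 and 17.1 with OSM and 18.96, 10.5 and 9.16 in CT. Here the CBP300 libraries stood far above those of every other group, CT included, and the PF9363, OSM and CT ranges overlapped. The log2 difference of CBP300 over OSM was 2.51 ± 0.24 (corrected 2.82), that of PF9363 against CBP300 -2.88 ± 0.24 (corrected -2.98), and that of PF9363 against OSM -0.37 ± 0.24 (corrected -0.16, and 0.06 with quantile scaling). Between OSM and CT it was 0.36 ± 0.24, against 0.65 without CT replicate 1, 0.73 in corrected values, -0.01 with median-of-ratios scaling and -0.14 with quantile scaling. The sign of the OSM against CT difference thus changed with the scaling, whereas MT2A and MT1E, in the same gene cluster, were lower with OSM under every setting tried.

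MT1G, like MT1X, was highest in the CBP300 libraries, at a lower level. As deposited it had the opposite sign to MT1X for OSM against CT and for PF9363 against OSM. It stood at 1.37, 1.63 and 3.29 TPM with PF9363, 9.45, 7.85 and 7.34 TPM with CBP300, 0.451, 1.902 and 1.44 TPM with OSM and 1.696, 1.903 and 3.25 TPM in CT. These rest on few reads, 5, 6 and 13 in PF9363 libraries, 40, 114 and 20 in CBP300 libraries, 2, 7 and 5 in OSM libraries and 8, 8 and 16 in CT libraries. MT1G rose with CBP300 over OSM (log2 change 2.08 ± 0.30, limma adjusted p = 0.000753; corrected 2.45), with no overlap between the groups, and it was lower with PF9363 than with CBP300 (-1.62 ± 0.30, limma adjusted p = 0.000935). Neither OSM against CT (-0.56, corrected -0.12, limma adjusted p = 0.127) nor PF9363 against OSM (0.46, corrected 0.67, limma adjusted p = 0.231) passed the threshold of 0.05, although OSM against CT did under median-of-ratios scaling (-0.80) and quantile scaling (-0.93).

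MT1F and MT1M were lowest with PF9363. MT1F had 2.33, 1.76 and 3.28 TPM with PF9363, 7.37, 5.97 and 8.47 TPM with CBP300, 5.39, 5.83 and 5.02 TPM with OSM and 9.96, 7.32 and 6.08 TPM in CT. It fell with PF9363 relative to OSM (log2 change -0.91 ± 0.20, limma adjusted p = 0.00349; corrected -0.71) and was below CBP300 by more (-1.27, limma adjusted p = 0.000343). The fall relative to OSM lost its call under median-of-ratios scaling (-0.62) and quantile scaling (-0.52). Every OSM library of MT1F lay below every CT library, but the difference (-0.43) did not pass the test (limma adjusted p = 0.0866) and was 0.09 in corrected values. It passed under median-of-ratios scaling (-0.78), quantile scaling (-0.97), voom on recovered reads (-0.73) and without CT replicate 3 (-0.58). CBP300 against OSM (0.36, limma adjusted p = 0.196) passed in corrected values (0.80) and with only those groups fitted.

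MT1M had 2.01, 1.597 and 3.34 TPM with PF9363, 5.2003, 4.75 and 7.002 TPM with CBP300, 5.63, 3.59 and 6.35 TPM with OSM and 10.9, 3.84 and 9.23 TPM in CT. The PF9363 libraries lay below all CBP300 and OSM libraries, while the CBP300, OSM and CT ranges overlapped. Its fall with PF9363 relative to OSM (-0.91 ± 0.33) passed narrowly (limma adjusted p = 0.0456). That call was lost, at log2 changes of -0.91 to -0.75, when PF9363 replicate 1 or 2, any CBP300 replicate, OSM replicate 1 or 3, or CT replicate 3 was left out, and in corrected values (-0.70). It was also lost under quantile scaling (-0.52), median-of-ratios scaling (-0.62), a pseudocount of 5 (-0.48) and voom on recovered reads (-1.03), and with no filter on low values. Against CBP300 the fall was -1.02 ± 0.33 (limma adjusted p = 0.0218), and its call was lost without PF9363 replicate 1 (-0.97), PF9363 replicate 2 (-0.86) or CBP300 replicate 3 (-0.88), and under quantile scaling (-0.59), median-of-ratios scaling (-0.65) and voom (-0.92). OSM against CT was -0.47 (corrected 0.10) and passed without CT replicate 2 (-0.86). MT1A spread too widely for any call, with 2.59 to 12.9 TPM in PF9363 libraries, 9.91 to 13.9 TPM in CBP300 libraries, 6.84 to 12.01 TPM in OSM libraries and 5.86 to 17.7 TPM in CT libraries.

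**Figure D2:**
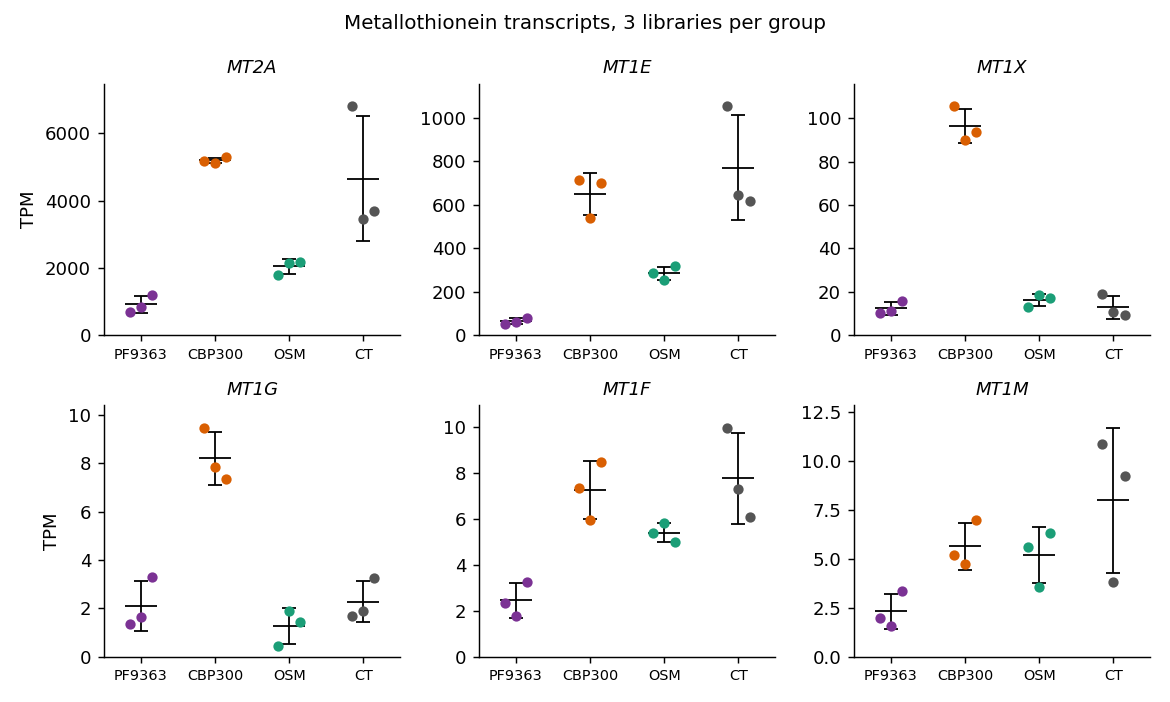
TPM of 6 metallothioneins by group, with 1 coloured point per library and a bar at the mean ± SD (n = 3); each y axis is linear from 0 and differs between genes. MT2A and MT1E had their lowest libraries in PF9363, an intermediate level in OSM and overlapping CBP300 and CT libraries, whereas MT1X and MT1G were high in the CBP300 libraries alone.

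The 4 tested metallothioneins that were not singled out by their levels were MT1A, MT1F, MT1G and MT1M. With OSM against CT none of them rose and none fell, where 42.1% of all tested genes rose and 15.2% fell. With PF9363 against OSM none rose and 2 fell, beside 11.3% and 35.6%. With CBP300 against OSM 1 rose and none fell, beside 13.8% and 13.3%, and with PF9363 against CBP300 none rose and 3 fell, beside 14.5% and 45.1%. In corrected values these counts were none and none, none and 1, 2 and none, and none and 3, in the same order of comparisons. Beside them, 23.1% and 27%, 28.1% and 24.9%, 17.6% and 14.7%, and 28.2% and 28.1% of all genes rose or fell in corrected values. Over all 7 metallothioneins that passed the filter on low values, MT2A, MT1E and MT1X included, the median log2 change was -0.47 for OSM against CT, beside 0.31 over all tested genes, and -0.91 for PF9363 against OSM, beside -0.31. It was 1.18 for CBP300 against OSM, beside 0.11, and -1.62 for PF9363 against CBP300, beside -0.41. Since the family was chosen on these values, the counts and medians describe it and support nothing. PF9363 against OSM, CBP300 against OSM and OSM against CT share the OSM libraries, so an OSM library that is low or high moves all 3 comparisons at once. In bulk RNA, fewer cells with a transcript and less of it per cell cannot be told apart.

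SLC30A1 (ZnT1, chr1:211571568-211578742, minus strand), the exporter of the plasma membrane and a known MTF1 target, was in the reverse order to MT2A between OSM and CT. It had 45.2, 35.03 and 20.1 TPM in PF9363 libraries, 108, 109 and 104 TPM in CBP300 libraries, 29.4, 23.7 and 23.3 TPM in OSM libraries and 3.02, 11.4 and 7.57 TPM in CT libraries. The CBP300 libraries stood above every other library, the OSM libraries stood above every CT library, and PF9363 libraries straddled the OSM range. The log2 difference was 1.80 ± 0.37 for OSM against CT, 1.35 without CT replicate 1 and 0.57 in corrected values. For CBP300 against OSM it was 2.04 ± 0.37 (corrected 1.48), for PF9363 against OSM 0.32 ± 0.37 (corrected 0.74) and for PF9363 against CBP300 -1.72 ± 0.37 (corrected -0.74). CBP300 libraries were thus higher than OSM libraries in SLC30A1, MT2A, MT1E, MT1X and MT1G alike, whereas OSM libraries were higher than CT libraries in SLC30A1 and lower in MT2A and MT1E. Being higher with CBP300 than with OSM was not particular to these genes. As deposited it held without overlap for MTF1, MT1F, all other tested ZnT genes, SLC39A6, SLC39A9, SLC39A10 and SLC39A14. MT1A, MT1M and SLC39A11 overlapped, and SLC39A1, SLC39A3, SLC39A4, SLC39A7, SLC39A8 and SLC39A13 were lower with CBP300.

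MTF1 (chr1:37809567-37859620, minus strand), the zinc-sensing factor itself, had 14.5, 14.02 and 8.15 TPM with PF9363, 23.4, 24.97 and 24.2 TPM with CBP300, 15.003, 11.9 and 11.6 TPM with OSM and 3.64, 6.34 and 6.34 TPM in CT. OSM libraries were above all CT libraries and CBP300 libraries above all others. MTF1 rose with OSM over CT (log2 change 1.13 ± 0.23, limma adjusted p = 0.00327), by 0.24 in corrected values. With CBP300 over OSM it rose by 0.87 ± 0.23 (limma adjusted p = 0.0186; corrected 0.50). That call was lost, with log2 changes of 0.81 to 0.89, when any CBP300 replicate or OSM replicate 2 or 3 was left out. PF9363 against CBP300 gave -0.97, a fall (limma adjusted p = 0.00414), but -0.10 without a call in corrected values. PF9363 against OSM gave -0.10 (limma adjusted p = 0.752) and a called rise of 0.40 in corrected values.

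SLC30A3 (ZnT3), known for loading zinc into synaptic vesicles of neurons, was raised in the PF9363 group. It had 9.93, 11.9 and 9.58 TPM with PF9363, against 1.29, 1.95 and 2.34 TPM with CBP300, 1.204, 1.24 and 1.12 TPM with OSM and 1.87, 1.58 and 1.66 TPM in CT. No PF9363 library came near any other library. The rise over OSM was 2.39 ± 0.15 (log2 change, limma adjusted p = 8.17e-07; corrected 2.66), and that over CBP300 was 2.02 ± 0.15 (limma adjusted p = 2.16e-06; corrected 1.98). OSM against CT (-0.30, limma adjusted p = 0.1) and CBP300 against OSM (0.37, limma adjusted p = 0.0861) did not pass, but OSM against CT did under median-of-ratios scaling (-0.54), quantile scaling (-0.65) and voom (-0.76), and CBP300 against OSM did without CBP300 replicate 1 (0.52) and in corrected values (0.68).

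SLC39A8 (ZIP8), an importer of zinc, manganese and cadmium at the plasma membrane and lysosome, was the other transporter that rose with PF9363 over OSM as deposited. Its levels were 8.36, 7.11 and 5.63 TPM with PF9363, 1.26, 1.27 and 1.104 TPM with CBP300, 2.06, 1.57 and 1.601 TPM with OSM and 0.343, 0.716 and 0.681 TPM in CT. None of these 4 groups overlapped another. The rise with PF9363 was 1.54 ± 0.16 over OSM (log2 change, limma adjusted p = 2.18e-05; corrected 1.92) and 1.85 ± 0.16 over CBP300 (limma adjusted p = 5.34e-06; corrected 2.52). With OSM over CT it rose by 0.80 ± 0.16 (limma adjusted p = 0.00294), but the corrected value was 0.04 and not called. CBP300 against OSM gave -0.31 (limma adjusted p = 0.159), called lower in corrected values (-0.61), under median-of-ratios scaling (-0.34) and with voom on recovered reads (-0.62).

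As deposited, the remaining ZnT genes had their lowest mean in CT and their highest in CBP300. SLC30A9 was nearly as low with PF9363 (19.01 TPM) as in CT (18.201 TPM). In corrected values CBP300 against CT was -0.01 for SLC30A4 and -0.14 for SLC30A9, neither called, and a called -0.22 for SLC30A6. It was 0.33 for SLC30A5 and 0.38 for SLC30A7, both called. SLC30A5, which loads zinc into the secretory pathway, had 38.9, 31.04 and 22.8 TPM with PF9363, 51.97, 47.8 and 45.2 TPM with CBP300, 34.2, 30.3 and 32.8 TPM with OSM and 6.96, 18.9 and 15.6 TPM in CT. SLC30A7, of the same pathway, had 20.5, 16.5 and 11.8 TPM with PF9363, 28.7, 28.5 and 28.6 TPM with CBP300, 20.3, 17.9 and 16.9 TPM with OSM and 1.92, 8.03 and 4.92 TPM in CT. Every OSM library of both genes was above every CT library. With OSM, SLC30A5 rose by 1.27 ± 0.29 (limma adjusted p = 0.0053) and SLC30A7 by 1.84 ± 0.33 (limma adjusted p = 0.00229), but corrected values were only 0.23 and 0.44. No comparison of these genes between an inhibitor and OSM, or between the inhibitors, passed as deposited. PF9363 against OSM was -0.10 for SLC30A5 and -0.19 for SLC30A7, but both were called higher in corrected values (0.29 and 0.30). CBP300 against OSM was 0.56 (corrected 0.10) for SLC30A5 and 0.62 (corrected -0.06) for SLC30A7. PF9363 against CBP300 was -0.66 for SLC30A5 (corrected 0.18, not called) and -0.81 for SLC30A7, which turned to a called 0.36 in corrected values. As falls, both passed without CT replicate 1 or 2, without PF9363 replicate 1 (-0.83 and -0.98), with a pseudocount of 5 (-0.59 and -0.68) and with only those groups fitted. CBP300 against OSM passed for both genes without CT replicate 1 or with only those groups fitted. The direction of PF9363 against CBP300 thus depended on the setting for both genes.

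SLC30A4, an endosomal and secretory vesicle exporter, had 10.97, 8.64 and 5.82 TPM with PF9363, 12.8, 13.3 and 11.5 TPM with CBP300, 7.59, 7.11 and 6.76 TPM with OSM and 1.54, 4.36 and 3.81 TPM in CT. Its rise with OSM (1.01 ± 0.27, limma adjusted p = 0.00953) turned to -0.19 in corrected values, a called fall. CBP300 against OSM (0.73, limma adjusted p = 0.0674) was 0.18 in corrected values, also without a call, and passed without CT replicate 1 or PF9363 replicate 3, with a pseudocount of 5 (0.53), under median-of-ratios scaling (0.63) and quantile scaling (0.59), and with only those groups fitted. PF9363 against OSM (0.18) was called higher in corrected values (0.65) and under quantile scaling (0.65). PF9363 against CBP300 (-0.55, limma adjusted p = 0.103) passed as a fall without CT replicate 1 or PF9363 replicate 1 (-0.73) and with a pseudocount of 5 (-0.39), was 0.06 under quantile scaling, and was called in the opposite direction in corrected values (0.46). SLC30A9, an exporter of the mitochondrion, likewise changed sign with OSM: it had 23.1, 18.9 and 14.98 TPM with PF9363, 58.6, 56.5 and 57.96 TPM with CBP300, 33.7, 32.1 and 32.1 TPM with OSM and 14.9, 20.7 and 18.98 TPM in CT, and its rise with OSM of 0.82 ± 0.15 (limma adjusted p = 0.00242) became -0.40. SLC30A9 also fell with PF9363 against OSM (-0.77, limma adjusted p = 0.00179; corrected -0.32, not called) and rose with CBP300 (0.80, limma adjusted p = 0.0035; corrected 0.26, not called). Against CBP300 its fall with PF9363 kept its call, at -1.57 and at -0.58 in corrected values. SLC30A6, a partner of SLC30A5 in the Golgi, averaged 28.1 ± 6.32 TPM with PF9363, 52.2 ± 1.08 TPM with CBP300, 30.8 ± 2.36 TPM with OSM and 17.96 ± 6.53 TPM in CT (SD, n = 3 each), and its rise with OSM (0.81, limma adjusted p = 0.0163) became a called fall in corrected values (-0.41) and lost its call without OSM replicate 1 (0.75). SLC30A6 also rose with CBP300 against OSM (0.74, limma adjusted p = 0.0461; corrected 0.19, also called), a call lost when any CBP300 or OSM replicate, PF9363 replicate 2 or CT replicate 3 was left out (0.70 to 0.80). It was lower with PF9363 than with CBP300 (-0.89, limma adjusted p = 0.00928), at 0.07 without a call in corrected values.

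Among the ZIP importers, SLC39A10 had the largest log2 rise with OSM over CT as deposited. It had 13.5, 11.5 and 5.16 TPM with PF9363, 21.5, 20.5 and 20.5 TPM with CBP300, 17.8, 15.2 and 13.8 TPM with OSM and 0.643, 4.38 and 3.01 TPM in CT. All OSM libraries exceeded all CT libraries, and the rise was 2.33 ± 0.41 (limma adjusted p = 0.00206), 1.08 in corrected values and 1.83 without CT replicate 1. It was lower with PF9363 than with CBP300 (log2 change -1.07, limma adjusted p = 0.0418). This call was lost, at -1.31 to -0.70 over all libraries left out, without PF9363 replicate 2 or 3, any CBP300 replicate, any OSM replicate or CT replicate 3, under median-of-ratios scaling (-0.64) and quantile scaling (-0.47), and in corrected values (-0.08).

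SLC39A14 (ZIP14), an importer of zinc, iron and manganese known as an interleukin-6 target in liver, had 49.3, 44.2 and 27.97 TPM with PF9363, 76.8, 78.2 and 71.8 TPM with CBP300, 52.9, 50.5 and 48.9 TPM with OSM and 10.2, 23.2 and 20.7 TPM in CT. OSM libraries were all above CT libraries. It rose with OSM by 1.52 ± 0.27 (log2 change, limma adjusted p = 0.0022; corrected 0.83, also called). PF9363 against OSM (-0.36, corrected 0.05, limma adjusted p = 0.306) and CBP300 against OSM (0.57, corrected 0.32, limma adjusted p = 0.138) did not pass; CBP300 against OSM did without CT replicate 1, under quantile scaling (0.50) and with only those groups fitted. PF9363 against CBP300 passed at -0.92 (limma adjusted p = 0.0134), but not without PF9363 replicate 3 (-0.68) or in corrected values (-0.27). SLC39A6, the closest relative of SLC39A10 and its partner at the plasma membrane, had 51.3, 41.4 and 30.8 TPM with PF9363, 60.99, 62.7 and 62.8 TPM with CBP300, 50.9, 45.04 and 42.3 TPM with OSM and 8.07, 29.5 and 22.02 TPM in CT. It rose with OSM by 1.34 ± 0.36 (corrected 0.48, limma adjusted p = 0.00999), and neither inhibitor against OSM nor PF9363 against CBP300 passed as deposited. With only the OSM and CT libraries fitted this call was lost at the same value, and PF9363 against CBP300 (-0.61, but 0.11 in corrected values, not called) passed without CT replicate 1 or with only those groups fitted. CBP300 against OSM (0.43, corrected 0.06) also passed with only those groups fitted.

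**Figure D3:**
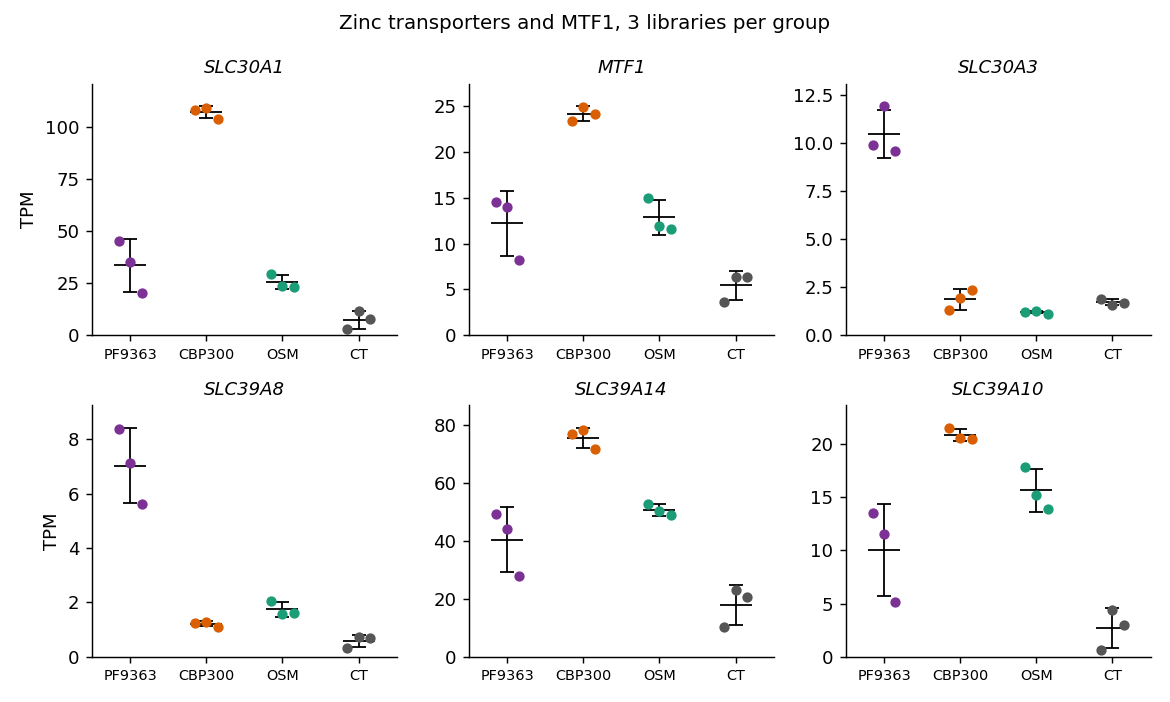
TPM of SLC30A1, MTF1, SLC30A3, SLC39A8, SLC39A14 and SLC39A10 by group, with 1 coloured point per library and a bar at the mean ± SD (n = 3); y axes are linear from 0 and differ between genes. SLC30A3 and SLC39A8 were high in the PF9363 libraries alone, and SLC30A1 and MTF1 were highest in CBP300 and lowest in CT.

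SLC39A1, a plasma membrane importer, averaged 3.35 ± 1.21 TPM with PF9363, 3.69 ± 0.268 TPM with CBP300, 4.86 ± 0.358 TPM with OSM and 0.8496 ± 0.683 TPM in CT (SD, n = 3 each). It rose with OSM over CT by 1.74 (log2 change, limma adjusted p = 0.00158), and its corrected rise of 1.66 was the largest of the 11 tested ZIP genes. Its CT level rests on 2, 27 and 23 reads, and without CT replicate 1 the rise as deposited was 1.40. No comparison of SLC39A1 between an inhibitor and OSM, or between the inhibitors, was called as deposited or corrected. SLC39A7, which releases zinc from the endoplasmic reticulum, was the most abundant transporter at 301 to 330.2 TPM with PF9363, 283 to 301 TPM with CBP300, 304 to 318 TPM with OSM and 261 to 339.9 TPM in CT, and none of the 4 comparisons was called as deposited. It was called higher with PF9363 in corrected values, over OSM (0.34) and over CBP300 (0.30), and lower with OSM against CT under median-of-ratios scaling (-0.39) and voom on recovered reads (-0.25). SLC39A13, a Golgi and vesicle transporter needed for connective tissue, fell in all 4 comparisons: it averaged 36.8 ± 4.25 TPM with PF9363, 52.9 ± 3.21 TPM with CBP300, 68.98 ± 5.54 TPM with OSM and 84.8 ± 3.36 TPM in CT, with no overlap between any of the groups. It fell with OSM (-0.30, limma adjusted p = 0.0294), with PF9363 against OSM (-0.89, limma adjusted p = 4.73e-05), with CBP300 against OSM (-0.38, limma adjusted p = 0.0214) and with PF9363 against CBP300 (-0.52, limma adjusted p = 0.00145), and each fall kept its sign and call in corrected values (-0.41, -0.57, -0.22 and -0.35). Its OSM against CT call was lost without OSM replicate 1 or 2 or CT replicate 2 (-0.32 to -0.23), its CBP300 against OSM call without CBP300 replicate 1 or 2 or OSM replicate 2 or 3 (-0.40 to -0.33), and its PF9363 against CBP300 call under median-of-ratios scaling (-0.06), quantile scaling (-0.12) and voom (-0.31). SLC39A11 fell with PF9363 against OSM (1.22 ± 0.0965 TPM with PF9363 and 3.44 ± 0.332 TPM with OSM; -1.001, limma adjusted p = 0.000245; corrected -0.67, also called). With OSM against CT it was -0.05 as deposited and called lower in corrected values (-0.34), under median-of-ratios scaling (-0.35) and under quantile scaling (-0.48). SLC39A3, an importer of the plasma membrane, was lower with OSM (17.8 ± 0.647 TPM) than in CT (26.7 ± 5.98 TPM; -0.53, limma adjusted p = 0.00913; corrected -0.64). SLC39A9 rose with OSM as deposited (0.56, limma adjusted p = 0.0189) but was called lower in corrected values (-0.38), and the rise lost its call under median-of-ratios scaling (0.18) and quantile scaling (0.21) and without CT replicate 1 (0.39) or OSM replicate 1 (0.505). It was lower with PF9363 than with CBP300 (-0.71, limma adjusted p = 0.00527) but at 0.09 without a call in corrected values, and called higher with PF9363 than with OSM in corrected values (0.17 as deposited, 0.58 corrected). It rose with CBP300 over OSM under both (0.88 and 0.49). SLC39A4, the intestinal importer, stayed at or below 3.76 TPM, and none of the 4 comparisons was called as deposited. OSM against CT (-0.32, corrected -0.06) was called lower under median-of-ratios scaling (-0.61), quantile scaling (-0.74) and voom (-0.69). The 3 SLC39A and 3 SLC30A genes that missed the filter, SLC39A2, SLC39A5, SLC39A12, SLC30A2, SLC30A8 and SLC30A10, did not exceed 0.404 TPM in any library, and SLC30A8 and SLC39A12 were at 0 throughout.

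Of the 34 genes, 26 passed the filter of at least 1 TPM in at least 3 libraries, and 16848 genes were tested in all. Of the 22 that were not singled out by their levels, 12 rose and 2 fell with OSM against CT, beside 42.1% and 15.2% of all tested genes. With PF9363 against OSM 2 rose and 5 fell, beside 11.3% and 35.6%. With CBP300 against OSM 5 rose and 1 fell, beside 13.8% and 13.3%, and with PF9363 against CBP300 2 rose and 11 fell, beside 14.5% and 45.1%. By kind, the 6 ZnT genes other than SLC30A1 had 5 rising and none falling with OSM, 1 and 1 with PF9363 against OSM, 2 and none with CBP300 against OSM, and 1 and 2 with PF9363 against CBP300. The 11 ZIP genes had 6 and 2, 1 and 2, 1 and 1, and 1 and 5 in the same order. With the 4 singled-out genes included, as a description only, the 26 had 13 and 4, 2 and 7, 9 and 1, and 2 and 15. With median-of-ratios scaling the counts of the 26 were 12 higher and 10 lower, 4 and 4, 10 and 2, and 4 and 12 in that order. Over all 16848 tested genes that scaling gave 5031 higher and 4696 lower, 3711 and 3772, 2748 and 2397, and 4398 and 4705. The members were chosen on these contrasts, and nothing is read from the counts.

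In corrected values 7 of the 22 were higher and 7 lower with OSM against CT, beside 23.1% and 27% of all genes. For PF9363 against OSM 9 were higher and 3 lower, beside 28.1% and 24.9%. For CBP300 against OSM 6 were higher and 2 lower, beside 17.6% and 14.7%, and for PF9363 against CBP300 5 were higher and 6 lower, beside 28.2% and 28.1%. Of the 6 ZnT genes 2 were then higher and 3 lower with OSM, and 5 higher and none lower with PF9363 against OSM. The 11 ZIP genes had 4 higher and 4 lower with OSM. How much of the OSM against CT rise of the transporters goes with GC content or transcript length cannot be told apart from OSM here. The same holds for the fall of MT2A and MT1E. Every CT library had a more positive GC slope and a more negative length slope than every OSM library. The annotated transcript has 5474 bases and 38.0% GC for SLC30A1, and 786 bases and 63.0% GC for MT2A.

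**Figure D4:**
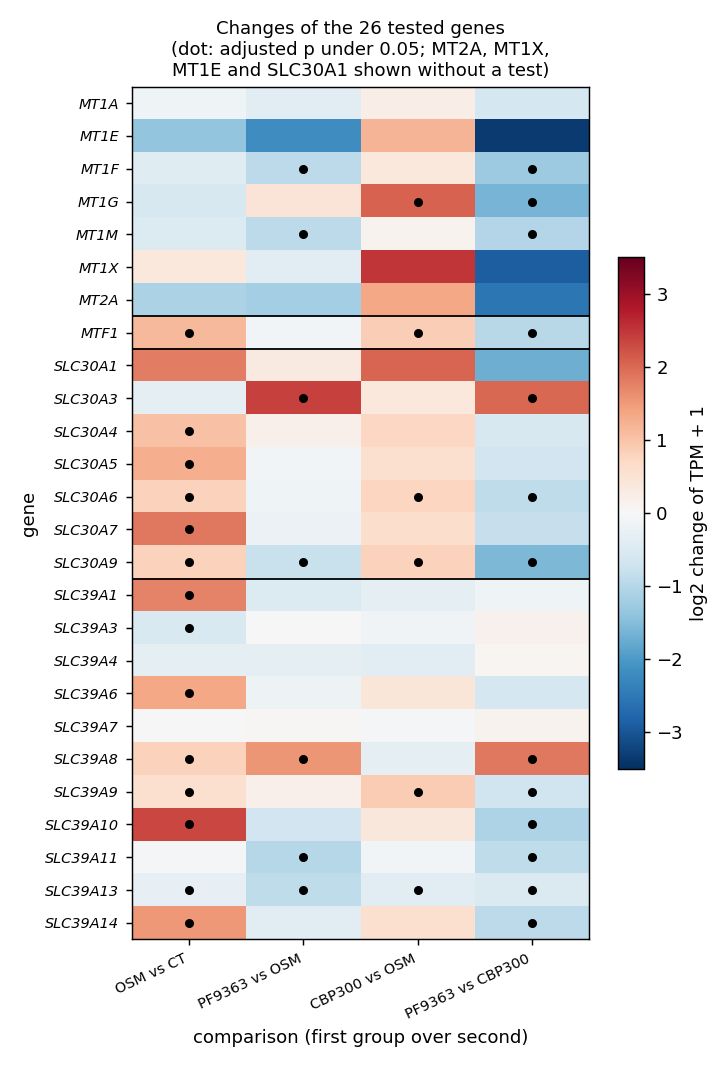
Log2 change of TPM + 1 of the 26 tested genes (rows, grouped as metallothioneins, MTF1, SLC30A and SLC39A) in 4 comparisons (columns), on a colour scale with red for higher and blue for lower in the first-named group; a dot marks a limma adjusted p under 0.05 and is left out for MT2A, MT1X, MT1E and SLC30A1. The metallothionein rows are blue for PF9363 against CBP300 and mostly red for CBP300 against OSM, and SLC30A3 and SLC39A8 are red with PF9363.

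**Figure D5:**
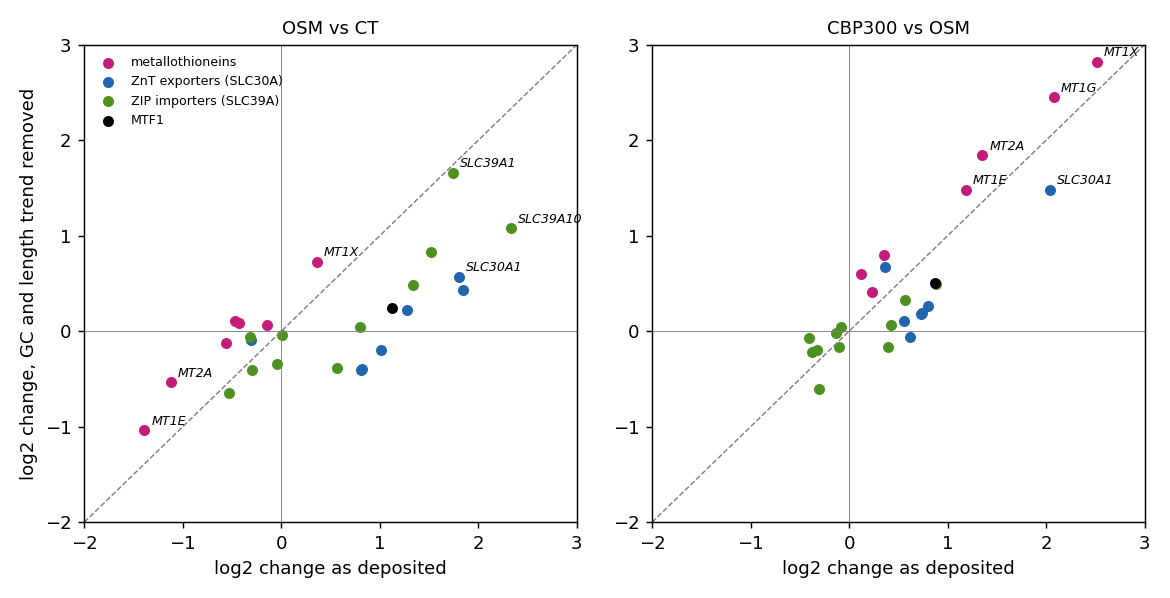
Log2 changes with the GC and length trend removed (y axis) against those as deposited (x axis) for OSM against CT and CBP300 against OSM, 1 point per tested gene coloured by kind, with a dashed line at equality. For OSM against CT most transporters lie below the line (SLC30A1 at 1.80 and 0.57), while MT2A and MT1E stay negative on both axes.

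Other zinc genes outside the rule, whose products move or hold zinc, were listed for comparison; log2 changes stand in parentheses here and for the lists that follow. The share of all tested genes that rose or fell was 42.1% and 15.2% with OSM, 11.3% and 35.6% with PF9363 against OSM, 13.8% and 13.3% with CBP300 against OSM, and 14.5% and 45.1% with PF9363 against CBP300. Of the 6 tested of 10 other zinc genes, 3 rose and 1 fell with OSM, 1 rose and 3 fell with PF9363 against OSM, 2 rose and 1 fell with CBP300 against OSM, and 1 rose and 5 fell with PF9363 against CBP300. In corrected values these were none and 1, 2 and 3, 1 and 2, and 1 and 4, beside 23.1% and 27%, 28.1% and 24.9%, 17.6% and 14.7%, and 28.2% and 28.1% of all genes. MT1L, a metallothionein copy of the same cluster that is annotated as a pseudogene in humans and whose sharing of reads with its neighbours was not tested, had 1.498, 0.993 and 1.85 TPM with PF9363, 3.45, 4.397 and 2.68 TPM with CBP300, 8.65, 10.4 and 7.36 TPM with OSM and 29.4, 15.2 and 11.8 TPM in CT. MT1L shared the fall with OSM (-0.93, limma adjusted p = 0.0197; corrected -0.61, not called) and with PF9363 against OSM (-2.01, limma adjusted p = 0.000247; corrected -1.80), but unlike MT2A, MT1E, MT1X and MT1G it also fell with CBP300 against OSM (-1.13, limma adjusted p = 0.0171; corrected -0.85), with no overlap between groups. The OSM against CT call was lost without OSM replicate 1 or 3, and the CBP300 call without CBP300 replicate 1 or 3 or OSM replicate 2. S100A9, a subunit of the zinc-binding protein calprotectin, had 6.81, 6.76 and 9.28 TPM with PF9363, was listed at 0 in all CBP300 libraries, and had 0.591, 1.42 and 1.51 TPM with OSM and 0, 5.92 and 1.33 TPM in CT, and its rise with PF9363 over OSM passed (limma adjusted p = 0.0101; log2 change 2.003, corrected 2.21), but not with a pseudocount of 0.1. SLC11A2 (DMT1), a transporter of divalent metals, fell with PF9363 against OSM (-1.69, limma adjusted p = 8.13e-05; corrected -1.30) and against CBP300 (-1.84, corrected -1.09), and rose with OSM (0.84, corrected -0.05 and not called). TRPM7, a channel that passes zinc, rose with OSM (1.51; corrected 0.24, not called) and was lower with PF9363 than with CBP300 (-1.28; corrected -0.12, not called).

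Metallothioneins also bind copper, and of 12 copper genes 4 rose and 5 fell with OSM, 2 rose and 4 fell with PF9363 against OSM, 2 rose and none fell with CBP300 against OSM, and 2 rose and 6 fell with PF9363 against CBP300. Beside these, all tested genes rose or fell in 42.1% and 15.2%, 11.3% and 35.6%, 13.8% and 13.3%, and 14.5% and 45.1% of cases in the same order. Corrected counts were 2 and 5, 4 and 3, 3 and none, and 4 and 3. Beside them, 23.1% and 27%, 28.1% and 24.9%, 17.6% and 14.7%, and 28.2% and 28.1% of all genes rose or fell in corrected values. The copper chaperone ATOX1 fell with OSM (11.6 ± 1.14 TPM with OSM and 28.4 ± 8.52 TPM in CT; -1.19, limma adjusted p = 0.00138; corrected -1.99), as did COMMD1 (-0.82, corrected -0.64), while COX11 (1.11, corrected 0.36) and the copper importer SLC31A1 (0.70, corrected -0.17 and not called) rose. With PF9363 against OSM, COMMD1 (-0.94, corrected -0.68) and SCO1 (-0.64, corrected -0.11 and not called) fell and SOD1 (0.64, corrected 0.90), the copper and zinc superoxide dismutase, and SLC31A2 (0.41, corrected 0.71) rose. The copper pump ATP7A had 0.872 ± 0.0445 TPM with PF9363, 7.41 ± 0.349 TPM with CBP300 and 3.87 ± 0.486 TPM with OSM; it was lower with PF9363 than with CBP300 (-2.17, limma adjusted p = 4.65e-06; corrected -1.06) and rose with CBP300 over OSM (0.79, corrected 0.18 and not called), as did SLC31A1 (0.60, corrected 0.25). The SLC31A1 call for CBP300 against OSM was lost without any one CBP300 replicate or OSM replicate 2 or 3 (0.55 to 0.65). The SLC31A2 call was lost without any one CBP300 or OSM replicate or PF9363 replicate 1 or 2 (0.37 to 0.46), the COMMD1 call for PF9363 against OSM under median-of-ratios scaling (-0.58) and the ATP7A call for CBP300 against OSM with a pseudocount of 0.1 (0.92). Between PF9363 and CBP300, COX11 (-1.03, corrected -0.39) and SCO1 (-0.84, corrected 0.14 and not called) were lower and SCO2 (0.67, corrected 0.39) was higher with PF9363. SCO1 also lost both of its calls under quantile scaling (-0.19 for PF9363 against OSM and -0.22 for PF9363 against CBP300).

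Of 12 tested iron genes 7 rose and 2 fell with OSM, 1 rose and 3 fell with PF9363 against OSM, 1 rose and 2 fell with CBP300 against OSM, and 2 rose and 4 fell with PF9363 against CBP300. The shares of all tested genes were 42.1% and 15.2%, 11.3% and 35.6%, 13.8% and 13.3%, and 14.5% and 45.1% in the same order. Corrected counts were 4 and 3, 8 and 3, 3 and 3, and 4 and 1. Beside them, 23.1% and 27%, 28.1% and 24.9%, 17.6% and 14.7%, and 28.2% and 28.1% of all genes rose or fell in corrected values. FTL, the ferritin light chain, had 12637, 13485 and 16767 TPM with PF9363, above the 6103 to 6471 TPM with CBP300, 5553 to 5670.3 TPM with OSM and 6511 to 7735 TPM in CT; it rose by 1.34 over OSM (limma adjusted p = 3.27e-06; corrected 1.56) and by 1.19 over CBP300 (corrected 1.06). STEAP3 (-0.87, corrected -0.51) and ACO1 (-0.85, corrected -0.36) fell with PF9363 against OSM. With OSM, IREB2 (1.60, corrected 0.34), TFRC (1.57, corrected 0.53), CYBRD1 (1.23, corrected 0.26 and not called) and NCOA4 (1.09, corrected 0.31 and not called) rose. IREB2 rose (0.99, corrected 0.41) and STEAP3 fell (-0.52, corrected -0.51) with CBP300 against OSM, and IREB2 (-1.06, corrected -0.04 and not called) and ACO1 (-0.95, corrected -0.09 and not called) were lower with PF9363 than with CBP300. IREB2 lost its call for CBP300 against OSM without any one CBP300 or OSM replicate (0.90 to 1.09), STEAP3 lost its call for PF9363 against OSM under quantile scaling (-0.40), and CYBRD1 lost its call without OSM replicate 1 (1.13).

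The medium held hydrocortisone, and metallothioneins are known glucocorticoid targets, so 12 glucocorticoid response genes were listed as well. With OSM 7 rose and 1 fell (beside 42.1% and 15.2% of all tested genes), with PF9363 against OSM 2 rose and 4 fell (beside 11.3% and 35.6%), with CBP300 against OSM 3 rose and 3 fell (beside 13.8% and 13.3%), and with PF9363 against CBP300 2 rose and 7 fell (beside 14.5% and 45.1%). Corrected counts were 6 and 3, 4 and 5, 3 and 4, and 4 and 5. Beside them, 23.1% and 27%, 28.1% and 24.9%, 17.6% and 14.7%, and 28.2% and 28.1% of all genes rose or fell in corrected values. The directions of the listed genes were mixed, and the part of hydrocortisone in the results was not tested. TSC22D3 (GILZ) had 23.9, 23.1 and 22.1 TPM with PF9363, 15.1, 15.7 and 17.2 TPM with CBP300, 41.2, 38.3 and 37.1 TPM with OSM and 47.9, 58.7 and 61.9 TPM in CT. It fell with CBP300 against OSM (-1.23, corrected -1.15, limma adjusted p = 2.78e-05). TSC22D3 also fell with PF9363 against OSM (-0.73, corrected -0.42), and ZBTB16 fell with PF9363 (-1.77, corrected -1.49) and with CBP300 (-0.74, corrected -0.52 and not called). With OSM, CEBPD (2.69, corrected 3.06), ERRFI1 (2.59, corrected 1.90), KLF9 (1.65, corrected 0.86) and ZBTB16 (1.31, corrected 1.37) rose. CEBPD (-0.92, corrected -0.65) and ERRFI1 (-1.17, corrected -0.83) fell with PF9363 against OSM, and DUSP1 (1.17, corrected 1.34) and PER1 (0.76, corrected 0.87) rose with CBP300. Between PF9363 and CBP300, ZBTB16 (-1.04, corrected -0.97), DUSP1 (-0.77, corrected -0.66), ANGPTL4 (-0.62, corrected -0.72) and NR3C1 (-1.31, corrected -0.27), the receptor itself, were lower with PF9363. DUSP1 against CBP300 lost its call without PF9363 replicate 3 or any one CBP300 replicate and under median-of-ratios scaling (-0.30), as did ANGPTL4 under that scaling (-0.15). ZBTB16 with CBP300 against OSM lost its call without any one CBP300 replicate or OSM replicate 1 or 2 (-0.78 to -0.62). All of these passed at a limma adjusted p under 0.05 as deposited.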

How the data were processed

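The authors deposited 1 table of TPM values per gene for 12 libraries of poly(A)-selected, stranded mRNA; no other unit was used. The submitters' processing notes name Trimmomatic 0.40, Bowtie2, RSEM 1.3.3 and GRCh38, with no roles; the annotation release and the handling of multi-mapping reads are not given in the sources used here. TPM columns summed to 1e6 except in PF9363 libraries, which were short by 178 to 430.

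The 16848 genes reaching 1 TPM in 3 or more libraries were fitted as log2(TPM + 1), which understates changes of low genes, with limma 3.58.1 in R 4.3.3: 1 mean per group over all 12 libraries, empirical Bayes with a trend, and Benjamini-Hochberg adjustment over all tested genes. TPM steps gave whole reads (tolerance 1e-05) for 16843 tested genes (99.97%), and limma-voom on those reads was an alternative; it called 5736 genes higher and 3885 lower with OSM against CT. A trend on GC content and length (natural splines, GENCODE release 29) was removed from 16729 genes for corrected values. Other alternatives were pseudocounts of 0.1 and 5, filters, median-of-ratios and quantile scaling, a replicate block, fits of 2 groups and each library left out. The fit was run on simulated counts for OSM against CT, with no GC or length trend and no library standing apart. It called 4 of 15948 unchanged genes there. How it behaves with the trends of these libraries was not tested. Values were tabulated and drawn with pandas 2.3.3, numpy 2.4.6 and matplotlib 3.10.9 under Python 3.11.15.

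The members, the other lists and the tests were chosen with earlier results of these data known. MT2A, MT1X, MT1E, SLC30A1 and MTF1 were always given in every library, as was each member with at least 5 TPM in its higher group and a called log2 change of at least 1 in size; from the other lists up to 4 called genes per comparison with the largest changes and at least 5 TPM were named. Intervals of TPM cover the spread of libraries only.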

Additional observations from a re-analysis of the deposited data

How the results depend on the processing

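The 26 tested genes are counted here with the 4 singled-out ones included, as a description only. For OSM against CT, PF9363 against OSM, CBP300 against OSM and PF9363 against CBP300, 17, 9, 10 and 17 of them were called. Of all tested genes 42.1% were higher and 15.2% lower, then 11.3% and 35.6%, 13.8% and 13.3%, and 14.5% and 45.1% in that order. With the replicate block the counts of the 26 were 17, 9, 9 and 16. Same-numbered libraries correlated at -0.48 to 0.23 in their deviations from group means, and differently numbered ones at -0.49 to 0.53. These deviations also hold the differences in GC slope between libraries, so whether the numbers pair the libraries cannot be told from them. The block ended, among the genes named, the calls of SLC39A10 for PF9363 against CBP300, SLC30A6 and IREB2 for CBP300 against OSM and SLC31A2 for PF9363 against OSM. With each library left out in turn the counts ranged over 14 to 18, 8 to 9, 7 to 15 and 15 to 21, with 15 for CBP300 against OSM without CT replicate 1. 2 of these counts moved by over 1.5 times: 15 for PF9363 against OSM with the GC and length trend removed, and 18 for CBP300 against OSM when only those groups were fitted. Over all tested genes, PF9363 against OSM went from 1901 higher and 5993 lower to 4696 and 4162 with the trend removed. CBP300 against OSM went from 2327 and 2238 to 6300 and 3770 with only those groups fitted, and to 4692 and 3031 without CT replicate 1. The cause was not tested. For the log2 changes of the 26 genes over the 4 comparisons, 1165 values from leaving out a library kept their direction and side of the threshold, 44 lost a call, 19 gained one and 20 without a call turned sign. Under the other settings 896 kept both, 35 lost a call and 52 gained one without turning sign. A further 39 with no call as deposited turned sign, and 6 with a call as deposited turned sign. Some of the 39 were called in the new direction, such as SLC30A4 (0.46) and SLC30A7 (0.36) for PF9363 against CBP300 in corrected values. Those 6 all arose with the trend removed: OSM against CT for SLC30A4 (-0.19), SLC30A9 (-0.40), SLC30A6 (-0.41) and SLC39A9 (-0.38), and PF9363 against CBP300 for SLC30A6 (0.073) and SLC39A9 (0.091). Of the listed genes named for a comparison, 590 values kept both and 34 lost a call with a library left out, and 491 kept both, 26 lost a call and 3 turned sign otherwise: SCO1 for PF9363 against CBP300 (0.14), and SLC11A2 (-0.0504) and SLC31A1 (-0.17) for OSM against CT, with the trend removed. For MT2A, given with no test, PF9363 against OSM was -0.82 under median-of-ratios scaling. Scaling moved the balance of calls: the median log2 change of all genes for OSM against CT was 0.31 as deposited and 0.00 with median-of-ratios scaling, with 7087 higher and 2553 lower against 5031 higher and 4696 lower, and among the tested members 13 and 4 against 12 and 10. Relative to the median gene, OSM against CT was -1.43 for MT2A, -1.70 for MT1E, 0.05 for MT1X and 1.499 for SLC30A1. Depth limits MT1G, which rests on 2 to 16 reads outside CBP300. It also limits MT1M, with 4 to 9 reads in PF9363 libraries and 9 to 17 in OSM libraries. In PF9363 libraries MT1A had 5 to 25 reads and MT1F 16 to 32.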
